A study of Mus musculus with 12 samples.

Results

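Liver X receptor (LXR) signalling, cholesterol efflux and oxysterol synthesis were followed through 10 genes in alveolar macrophages of the mouse lung. The 10 were chosen by gene symbol, namely the receptors Nr1h2 and Nr1h3, the export genes Abca1, Abcg1 and Pltp, the ester-cycle genes Soat1 and Nceh1, and the oxysterol enzymes Cyp27a1, Ch25h and Cyp7b1. All 10 were found among the 55291 gene symbols of the deposited table. RNA sequencing had been done on flow-sorted cells of 12 female C57BL6/NJ mice, purchased animals 8 to 11 weeks old. The ozone group, 6 mice, was exposed at 0.8 ppm daily over 4 days, 4 h each time, and the control group, 6 mice, breathed filtered air on the same schedule. Lungs were taken 3 days afterwards. The labels name no transgene or gene deletion. Each mouse gave 1 library, and each of 2 flow-sort batches held 3 mice of each group.

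LXR alpha and LXR beta are nuclear receptors that bind oxysterols, the oxidized derivatives of cholesterol, and pair with retinoid X receptors on DNA. In macrophages they switch on genes that move cholesterol out of the cell, and they are held in check by corepressors when no ligand is bound. Alveolar macrophages take up surfactant, which is rich in phospholipid and cholesterol, and depend on this export route to avoid filling with lipid.

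Expression is given on a log2 scale after variance stabilization and batch correction by the authors. The mean of the filtered-air mice is 0 in every gene, so a value is a difference from that mean and the level of one gene cannot be compared with that of another. Changes of genes with few reads are compressed on this scale. The size of the compression was worked out for the usual inverse hyperbolic sine form of the transformation, which was assumed. The slope of the value per log2 unit of reads is then about 0.119 at 10 reads, 0.356 at 100 reads and 0.769 at 1000 reads. Relative depth, read from the size of 1 read in low genes, lay between 0.871 and 1.22, and read totals are not known. RNA integrity numbers were 9.2 to 9.7 after ozone and 8.9 to 9.7 in filtered air. In all 10 defining alveolar macrophage markers examined, none of the 12 mice was at a lowest value shared within its flow-sort batch. Of these markers Car4 rose by 0.32 and Krt79 fell by 0.35 after ozone (limma's adjusted p = 0.0460 and 0.0177). In sorted cells, fewer cells of a kind and less RNA per cell cannot be told apart.

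Of the 10 genes, 1 changed after ozone: Pltp fell. This was 1 of 10 with limma's adjusted p under 0.05, against 4.25% of the 19633 genes tested, 2.41% called higher and 1.84% called lower. All 10 genes passed the filter on low values. It needed at least 6 of the 12 mice above the lowest value shared by mice of a flow-sort batch. In 9 of the 10 genes no mouse was at such a shared value. A mouse alone at the lowest value of its batch also counts as above, even without reads. The differences of the 10 genes had a median of -0.03 and ran from -0.30 to 0.15, and the median over all genes tested was -0.0033. At an unadjusted p under 0.05 there were 4 of the 10 (Pltp, Nr1h3, Soat1 and Abca1), against 16.7% of all genes.

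**Figure D1:**
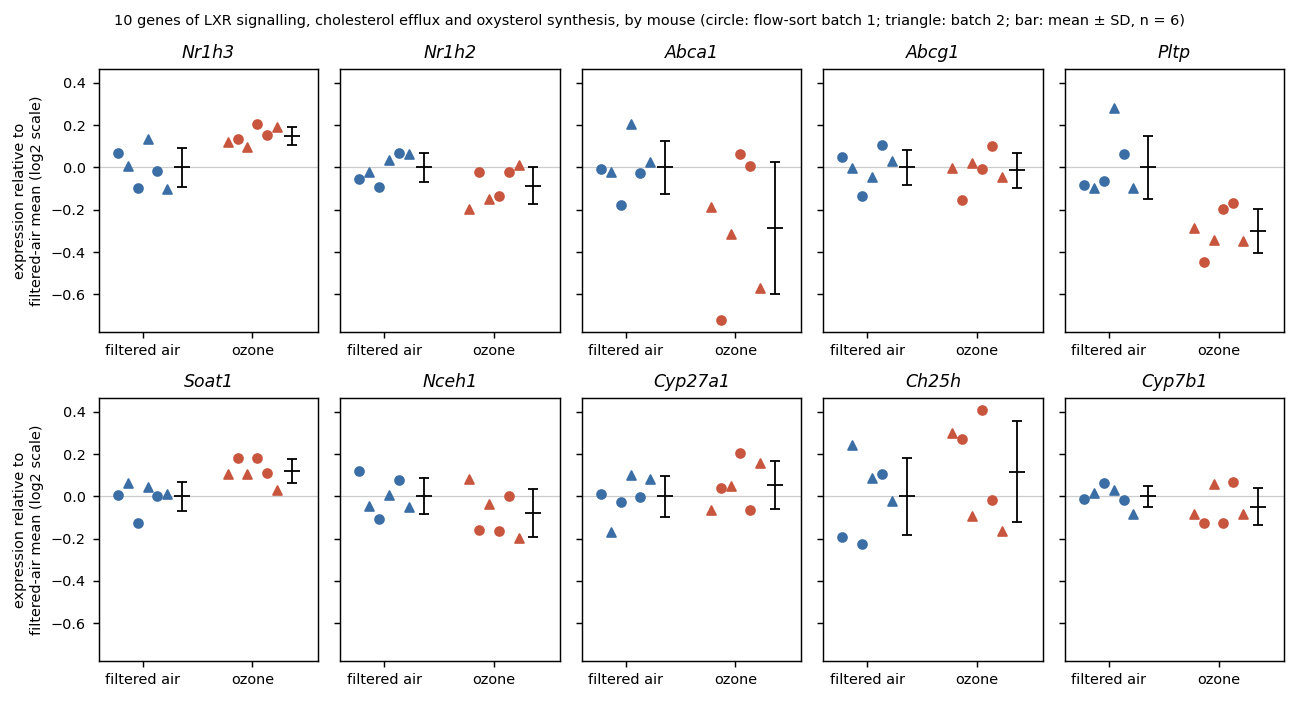
Expression of the 10 genes in each mouse, in log2 units relative to the filtered-air mean (vertical axis), for filtered air (blue) and ozone (red), with the mean and SD of 6 mice beside the points. Circles are flow-sort batch 1 and triangles batch 2. The 2 groups of mice lie apart only in Pltp, and Abca1 shows the widest scatter after ozone, from -0.72 to 0.06.

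The receptors were examined first. Nr1h3 encodes LXR alpha, the form enriched in macrophages, liver and fat. It ran from -0.10 through a median of -0.0047 to 0.14 in filtered air and from 0.097 through 0.14 to 0.21 after ozone. The ozone mice lay close together, with an SD of 0.042 against 0.093 in filtered air, and 3 of the 6 lay above every filtered-air mouse. The difference was 0.15 (SE 0.045, 95% confidence interval 0.054 to 0.25) and was not called (limma's adjusted p = 0.0797). Leaving out filtered-air mouse 4, the highest of its group, gave a called rise of 0.18 (limma's adjusted p = 0.0269).

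Nr1h2 encodes LXR beta, which is expressed in most tissues. Its values ran from -0.094 through 0.0076 to 0.071 in filtered air and from -0.20 through -0.080 to 0.014 after ozone, so the groups overlapped. The difference was -0.086 (SE 0.047, 95% confidence interval -0.19 to 0.015) and was not called (limma's adjusted p = 0.400). It was -0.033 in flow-sort batch 1 and -0.14 in batch 2. The estimates of the 2 receptors thus had opposite signs, and a difference between them was not tested.

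None of the partners and coregulators listed for LXR passed the test, 0 of 10 in limma, while 2 of them had an unadjusted p under 0.05, against 16.7% of all genes. Their median difference was 0.019. Rxra and Rxrb, the heterodimer partners, differed by 0.031 and 0.067. The corepressor gene Ncor1 differed by 0.016. The smallest p-value belonged to Nrip1, a corepressor, with a difference of 0.23 (SE 0.083, limma's adjusted p = 0.155). Without filtered-air mouse 5 it was 0.29 and called (limma's adjusted p = 0.0418).

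The export genes were examined next. Abca1 encodes the membrane transporter that loads cholesterol and phospholipid onto lipid-poor apolipoprotein A-I. In filtered air Abca1 ran from -0.18 through -0.014 to 0.21. After ozone it was at -0.19, -0.72, -0.31, 0.063, 0.0075 and -0.57 in mice 1 to 6. The SD after ozone was 0.31 against 0.12 in filtered air. Mice 4 and 5 sat within the filtered-air range and the other 4 ozone mice lay below every filtered-air mouse. The difference was -0.29 (SE 0.12, 95% confidence interval -0.54 to -0.033) and was not called (limma's adjusted p = 0.229). It was -0.15 in flow-sort batch 1 and -0.43 in batch 2, and -0.19 without ozone mouse 2, none of them called (limma's adjusted p = 0.843, 0.242 and 0.390).

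Abcg1 encodes the half-transporter that hands cholesterol to mature high-density lipoprotein, and loss of it is known to fill alveolar macrophages with lipid. Its values were -0.14, 0.013 and 0.11 at the lowest, median and highest filtered-air mouse, and -0.15, -0.0048 and 0.10 after ozone. The groups covered almost the same range, with a difference of -0.014 (SE 0.050, 95% confidence interval -0.12 to 0.092, limma's adjusted p = 0.935). The sign turned to 0.0098 without filtered-air mouse 5 and to 0.017 without ozone mouse 2.

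Pltp encodes phospholipid transfer protein, a secreted protein that moves phospholipid between lipoproteins and an established LXR target. Filtered-air mice ran from -0.099 through -0.074 to 0.28, and ozone mice from -0.45 through -0.32 to -0.17. The lowest filtered-air mouse was above the highest ozone mouse, the one separation among the 10 genes; 3.53% of all genes tested had separate groups, 1.58% in the lower direction. Pltp fell by 0.30 on the log2 scale (SE 0.069, 95% confidence interval -0.45 to -0.15, limma's adjusted p = 0.0243), and all 6 ozone mice lay below the lowest control. The difference was -0.24 in flow-sort batch 1 and -0.36 in batch 2, each with 3 mice per group and neither called alone (limma's adjusted p = 0.289 and 0.322). It no longer passed when filtered-air mouse 5 (limma's adjusted p = 0.0523), ozone mouse 2 (0.0588) or ozone mouse 3 (0.0597) was left out, with differences of -0.29, -0.27 and -0.29. After quantile normalization the difference was -0.23 (limma's adjusted p = 0.149).

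Filtered-air mouse 4 had the highest Pltp, Abca1 and Nr1h3 of its group. The same mouse had the highest filtered-air mean in 6 of the 10 marker lists of other cells. These were the lists of B cells (0.38), alveolar epithelium (0.32), monocytes and interstitial macrophages (0.27), airway epithelium (0.26), neutrophils (0.18) and fibroblasts (0.11). It also had the lowest mean of the alveolar macrophage list in its group, -0.090, and the lowest RNA integrity number of all mice, 8.9. Means of the 5 B cell markers ran from -0.23 to 0.38 in filtered air and from -0.44 to -0.077 after ozone. In none of the 5 was a mouse at a lowest value shared within its batch. Of the 5 differences, 5 were below 0, 0 were called by limma and 3 had an unadjusted p under 0.05. Over all genes tested these shares were 52.0%, 4.25% and 16.7%. For the 10 monocyte and interstitial macrophage markers the ranges were -0.22 to 0.27 and -0.042 to 0.26. Of these 10, 0 were called by limma and 3 had an unadjusted p under 0.05, against 4.25% and 16.7% of all genes tested. Without filtered-air mouse 4, Pltp differed by -0.24 and kept its call (limma's adjusted p = 0.0222). With the RNA integrity number as a covariate, Pltp differed by -0.28 and kept its call (limma's adjusted p = 0.0307). The part of these other cells in the result was not tested.

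On mouse chromosome 2 the Pltp gene overlaps the end of Ctsa, which encodes lysosomal cathepsin A and lies on the opposite strand (GENCODE M21). Whether reads were counted by strand is not given in the sources used here. Ctsa differed by 0.13 (SE 0.035, limma's adjusted p = 0.0584), a value of the opposite sign to that of Pltp. Nr1h3 overlaps Acp2 in RefSeq but not in GENCODE M21, and Acp2 differed by 0.10 (SE 0.054, limma's adjusted p = 0.386). The Acp2 difference was 0.23 in flow-sort batch 1 and -0.030 in batch 2 (limma's interaction test, unadjusted p = 0.00960, adjusted p = 0.9998).

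The stretch upstream of the start site is shown for Abca1 and Pltp, because these export genes had the lowest differences of the 10. LXR with its partner binds a direct repeat of a 6-base half-site spaced by 4 bases, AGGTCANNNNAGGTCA. RefSeq windows of 250 bases before the start (GRCm38.p6) were searched on both strands, allowing 3 mismatches in the 12 fixed positions. Windows existed for 8 of the 10 genes, and a match was found in 1 of them, Abca1. Of 27025 symbols with a window, 20.9% held a match, so a match at this tolerance is common. The matched bases are in capitals.

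Abca1 (chr4:53159896-53160145, minus strand): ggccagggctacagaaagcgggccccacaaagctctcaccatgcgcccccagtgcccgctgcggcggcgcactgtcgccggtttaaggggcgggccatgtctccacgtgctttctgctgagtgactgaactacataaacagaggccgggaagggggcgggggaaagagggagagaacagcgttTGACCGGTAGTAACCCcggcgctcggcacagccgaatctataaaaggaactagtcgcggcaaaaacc

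Pltp (chr2:164857709-164857958, minus strand): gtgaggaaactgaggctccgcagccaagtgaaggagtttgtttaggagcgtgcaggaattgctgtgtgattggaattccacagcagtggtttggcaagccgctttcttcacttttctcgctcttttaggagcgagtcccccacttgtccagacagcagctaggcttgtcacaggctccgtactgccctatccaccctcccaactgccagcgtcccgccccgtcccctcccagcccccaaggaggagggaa

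The Abca1 match lies 67 to 52 bases before the start and reads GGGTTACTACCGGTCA on the other strand. The same 16 letters stand before Fasn, which encodes fatty acid synthase, and they were found in 2 of the 27025 symbols. With the 2 bases that differ between Abca1 and Srebf1 left free, GGGTTACTNNCGGTCA was found in 3 symbols, namely Abca1, Fasn and Srebf1. These 3 hold it by construction. The pattern was drawn from the matches of Abca1 and Srebf1, and Fasn shares the letters of Abca1. Binding by LXR was not tested. Srebf1 encodes the lipogenic factor SREBP-1 and, like Fasn, is a known LXR target. Stretches of 56 bases around these matches are given for comparison with the Abca1 window.

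Srebf1 (chr11:60210618-60210673, minus strand): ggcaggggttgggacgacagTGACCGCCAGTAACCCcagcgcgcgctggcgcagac

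Fasn (chr11:120824737-120824792, minus strand): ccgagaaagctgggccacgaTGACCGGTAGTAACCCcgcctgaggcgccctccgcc

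The 3 genes that share these letters were not called, and their differences were -0.29 for Abca1, -0.061 for Srebf1 and 0.090 for Fasn (limma's adjusted p = 0.229, 0.604 and 0.669). Fasn differed by 0.27 in flow-sort batch 1 and -0.091 in batch 2 (limma's interaction test, unadjusted p = 0.0225, adjusted p = 0.9998). The window of Pltp held no match at this tolerance. Of the listed genes outside the 10, 34 had a window and 7 held a match, against 20.9% of all symbols with a window. Arl4c had 2 overlapping matches and Lcat had 1, and both genes were called after ozone. The others with a match were Rxra, Srebf1, Fasn, Cyp8b1 and Cyp46a1, none of them called.

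Among the other LXR targets listed, 2 fell and 0 rose of 14 tested, with 11 differences below 0 and a median of -0.085. An unadjusted p under 0.05 was found for 6 of the 14. Over all genes tested 1.84% were called lower, 16.7% had an unadjusted p under 0.05 and 52.0% a difference below 0. Apoc1, an apolipoprotein gene beside Apoe, ran from -0.25 through -0.040 to 0.32 in filtered air and from -0.55 through -0.49 to -0.26 after ozone. The groups did not overlap, and Apoc1 fell by 0.46 (SE 0.088, limma's adjusted p = 0.00936). Arl4c, which encodes a small GTPase that aids cholesterol transport to the cell surface, ran from -0.38 through 0.055 to 0.22 and from -0.57 through -0.42 to -0.25. It fell by 0.43 (SE 0.088, limma's adjusted p = 0.0124), although filtered-air mouse 5, at -0.38, lay within the ozone range. Both genes kept their call in all 12 fits that left out 1 mouse, and lost it after quantile normalization (limma's adjusted p = 0.125 and 0.171).

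The other 12 genes of this list did not pass the test. Apoe, the main apolipoprotein secreted by macrophages, ran from -0.59 through 0.0055 to 0.50 in filtered air and from -0.83 through -0.64 to 0.0086 after ozone. Its difference was -0.50 (SE 0.18, limma's adjusted p = 0.156), with -0.084 in flow-sort batch 1 and -0.91 in batch 2. For Apoe limma's interaction test gave an unadjusted p of 0.0153 and an adjusted p of 0.9998. Of all genes tested, 2.6% had an unadjusted p under 0.05 in that test. Scd1 and Scd2, which encode stearoyl-CoA desaturases, differed by -0.41 (limma's adjusted p = 0.0729) and -0.32 (0.0877). Both were called without filtered-air mouse 5 (limma's adjusted p = 0.0467 and 0.0321) and with the replicate block (0.0124 and 0.0364), and Scd1 also without ozone mouse 4 (0.0447). Filtered-air mouse 4 was the highest of its group in both, at 0.56 and 0.42, and without it the differences were -0.29 and -0.23, neither called (limma's adjusted p = 0.0540 and 0.0997). Smpdl3a, a phosphodiesterase gene, differed by 0.15 (limma's adjusted p = 0.0550), and was called without ozone mouse 6 (limma's adjusted p = 0.0216), without the flow-sort batch term (0.0312), with the replicate block (0.0473) and without the filter on low values (0.0489). Mylip, which marks the LDL receptor for degradation, differed by -0.13, and Lpcat3, a phospholipid-remodelling enzyme, by 0.032, neither called. Cd5l, a secreted macrophage protein, had reads in only 6 of the 12 mice.

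**Figure D2:**
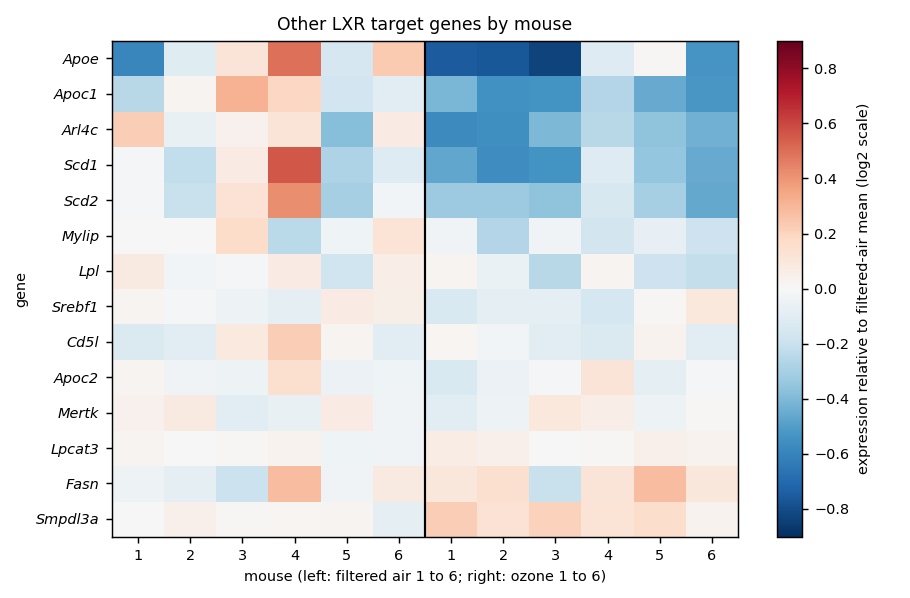
Heatmap of the 14 other LXR target genes (rows, ordered by difference) in each mouse (columns, filtered air 1 to 6 left of the line and ozone 1 to 6 right of it), in log2 units relative to the filtered-air mean. Apoc1, Arl4c, Scd1, Scd2 and Mylip are below 0 in all 6 ozone mice, and Apoe reaches 0.0086 in ozone mouse 5.

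The ester cycle decides whether cholesterol is stored or released. Soat1 encodes the enzyme that esterifies cholesterol for lipid droplets. It ran from -0.13 through 0.0076 to 0.065 in filtered air and from 0.031 through 0.11 to 0.18 after ozone, and 5 of 6 ozone mice lay above every filtered-air mouse. The difference was 0.12 (SE 0.041, 95% confidence interval 0.031 to 0.21) and was not called (limma's adjusted p = 0.136). It was 0.20 in flow-sort batch 1 and 0.041 in batch 2 (adjusted p = 1.00 in limma's interaction test).

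Nceh1 encodes a hydrolase of neutral cholesteryl ester. Filtered-air mice ran from -0.11 through -0.020 to 0.12 and ozone mice from -0.20 through -0.098 to 0.084. The groups overlapped, with a difference of -0.079 (SE 0.056, 95% confidence interval -0.20 to 0.040, limma's adjusted p = 0.545). It was -0.14 in flow-sort batch 1, -0.020 in batch 2 and -0.053 without filtered-air mouse 1.

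Of the 15 other genes listed for the release, transport, storage and efflux of sterols, 1 fell and 0 rose, and their median difference was -0.0062. An unadjusted p under 0.05 was found for 5 of the 15, against 16.7% of all genes tested, of which 1.84% were called lower. The one that fell was Lcat, which encodes the plasma enzyme that esterifies cholesterol on lipoproteins. It ran from -0.044 through -0.0082 to 0.048 in filtered air and from -0.25 through -0.14 to -0.091 after ozone, with no overlap. Lcat fell by 0.15 (SE 0.036, limma's adjusted p = 0.0281), and its call was lost without any one of 6 mice, namely filtered-air mice 1, 4 and 6 and ozone mice 1, 3 and 5. It also missed the threshold with a variance trend (limma's adjusted p = 0.0510) and after quantile normalization (0.131). Differences of the genes for lysosomal release of cholesterol were 0.15 for Lipa, 0.040 for Npc1 and 0.12 for Npc2 (limma's adjusted p = 0.298, 0.654 and 0.109). Scarb1, a receptor for high-density lipoprotein, differed by 0.11 and Cav1, the caveolin-1 gene, by -0.30, neither called. Cav1 was called with the replicate block (limma's adjusted p = 0.0210) and without ozone mouse 4 (0.0440).

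The oxysterol enzymes showed no called difference. Cyp27a1 encodes a mitochondrial hydroxylase of the sterol side chain. Its values ran from -0.17 through 0.0047 to 0.10 in filtered air and from -0.065 through 0.045 to 0.20 after ozone, with a difference of 0.054 (SE 0.058, 95% confidence interval -0.070 to 0.18, limma's adjusted p = 0.722). The groups overlapped in all but 2 ozone mice, which lay above the filtered-air range. The difference was 0.017 without filtered-air mouse 2 and 0.021 without ozone mouse 4.

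Ch25h encodes a cholesterol hydroxylase of the endoplasmic reticulum that is known to be induced by interferon. It ran from -0.22 through 0.034 to 0.24 in filtered air and from -0.16 through 0.13 to 0.41 after ozone. The scatter was wide in both groups, with SDs of 0.18 and 0.24, and the difference was 0.12 (SE 0.11, 95% confidence interval -0.11 to 0.34, limma's adjusted p = 0.665). Leaving out single mice moved it between 0.052 (without ozone mouse 4) and 0.18 (without ozone mouse 6), and it was 0.067, 0.074 and 0.076 without filtered-air mouse 3, filtered-air mouse 1 and ozone mouse 1. The sign differed between flow-sort batches, 0.32 in batch 1 and -0.090 in batch 2 (adjusted p = 1.00 in limma's interaction test). Across all 19633 genes the interaction test called 0 genes (0% of those tested), with 2.6% at an unadjusted p under 0.05; among the 10 genes this was 1, Ch25h.

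Cyp7b1 encodes oxysterol 7-alpha-hydroxylase, which acts on the products of Ch25h and Cyp27a1. It was barely detected. Inversion of the transformation gave 1, 1, 3, 1, 1 and 0 reads in filtered-air mice 1 to 6 and 0, 0, 2, 0, 4 and 0 reads in ozone mice 1 to 6. Together these were 7 reads against 6, and a count of 0 allows up to 3 reads in a library. A difference in Cyp7b1 was not detectable at this depth (limma's adjusted p = 0.675).

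Of the other listed oxysterol and bile acid genes, 0 of the 8 tested passed in limma, with 3 at an unadjusted p under 0.05 and 7 differences below 0, against 16.7% and 52.0% of all genes tested. Their median difference was -0.075. Cyp7a1, the liver enzyme that opens bile acid synthesis, was constant in all 12 mice and was not tested. The smallest p-value was that of Sult2b1, a sterol sulfotransferase, with a difference of -0.22 (SE 0.062, limma's adjusted p = 0.0630). It was called without filtered-air mouse 2 (limma's adjusted p = 0.0479) or ozone mouse 1 (0.0346), without the flow-sort batch term (0.0412) and with the replicate block (0.0316). Hsd3b7, which acts after 7-alpha-hydroxylation, differed by -0.16 (limma's adjusted p = 0.283), and Gpr183, an oxysterol receptor of immune cells, by -0.041 (0.865).

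**Figure D3:**
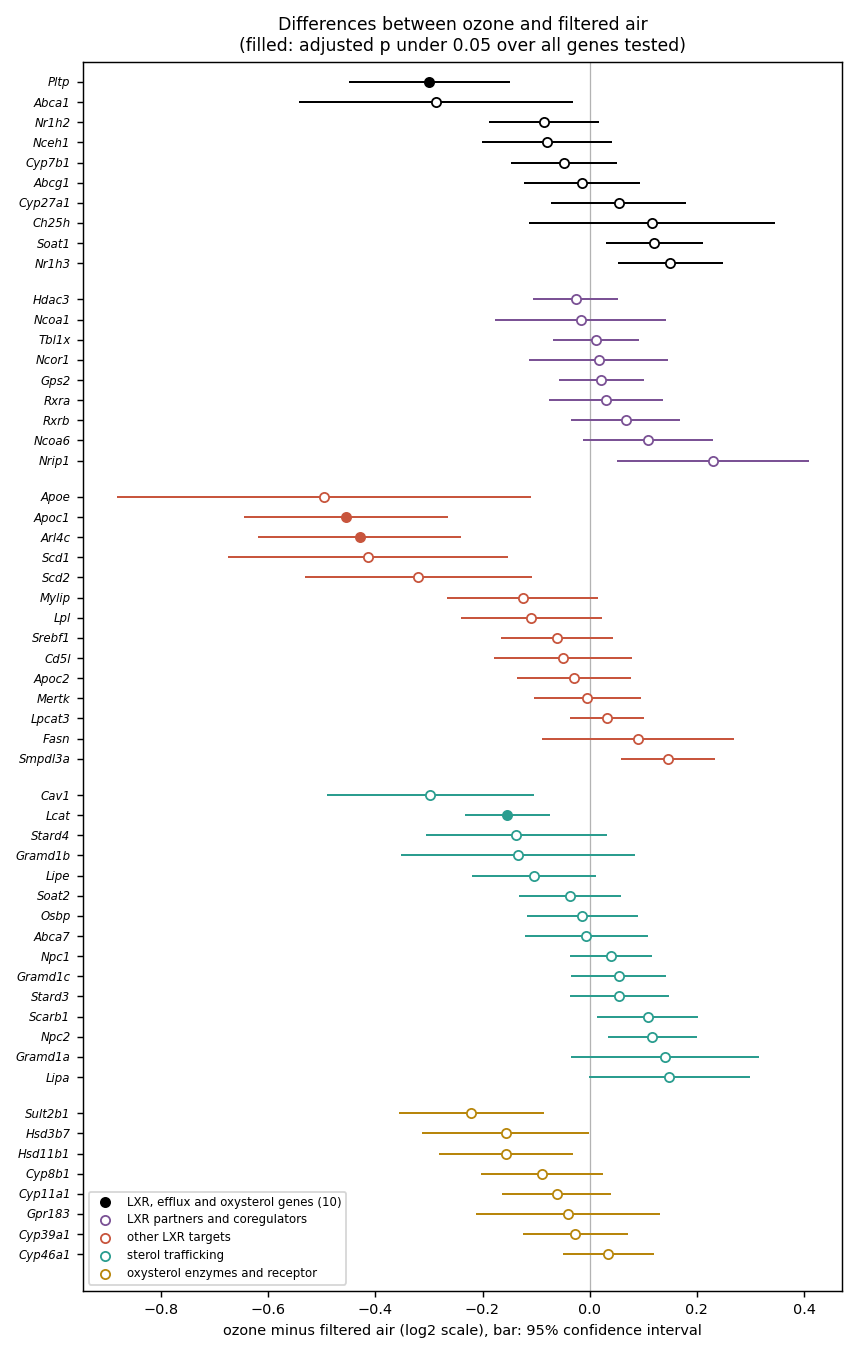
Difference between ozone and filtered air on the log2 scale (horizontal axis, point) with its 95% confidence interval (bar) for the 10 genes and 46 of the 47 tested genes of the 4 other lists. Filled points passed the adjusted threshold over all genes tested. The filled points are Pltp, Apoc1, Arl4c and Lcat, all below 0.

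In all, 3 of the 47 listed genes outside the 10 were called, each of them lower, and 16 had an unadjusted p under 0.05, against 4.25% and 16.7% of all genes tested. Their median difference was -0.027.

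How the 10 genes varied from mouse to mouse was examined in the residuals left after exposure and flow-sort batch, over 12 mice and 45 pairs of genes. None of the pairs, 0 of 45, had an adjusted p under 0.05 in the exact permutation test of Pearson's r, in which mice were exchanged within exposure and batch, while 3 had an unadjusted p under 0.05. The highest value was that of Soat1 with Ch25h (Pearson r = 0.767, exact permutation p = 0.00617, adjusted p = 0.278; Spearman rho = 0.713, exact permutation p = 0.0262, adjusted p = 0.625). It was 0.680 without the mice farthest from the median of Soat1. Next came Abca1 with Pltp (Pearson r = 0.727, exact permutation p = 0.0239, adjusted p = 0.538; Spearman rho = 0.636, exact permutation p = 0.0340, adjusted p = 0.625), at 0.667 without the farthest mice. The third was Abcg1 with Nceh1 (Pearson r = 0.649, exact permutation p = 0.0478, adjusted p = 0.718; Spearman rho = 0.692, exact permutation p = 0.0417, adjusted p = 0.625), at 0.528 without them. All values of a mouse share 1 library and its depth.

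**Figure D4:**
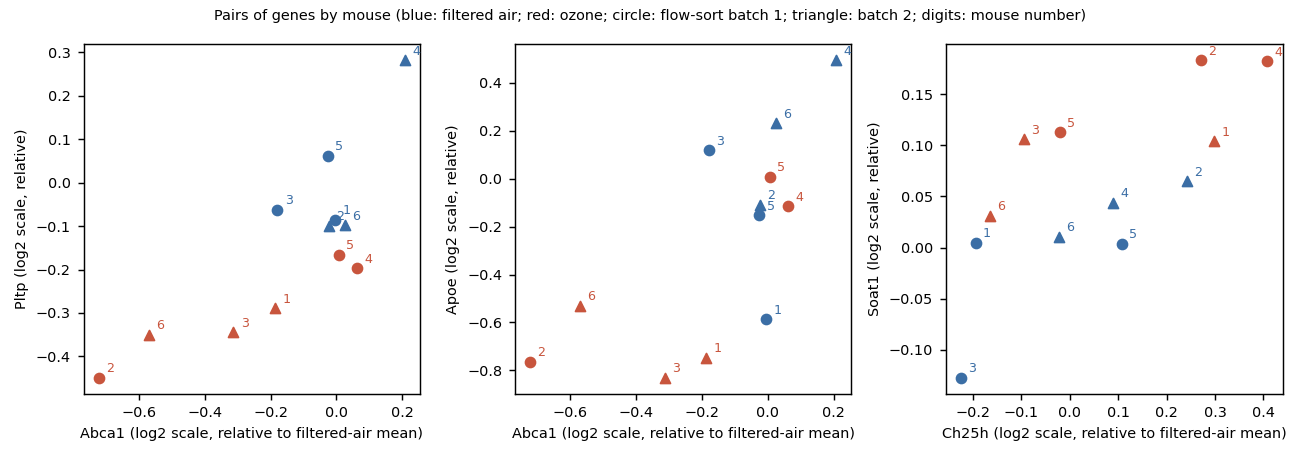
Values of Pltp and of Apoe against Abca1, and of Soat1 against Ch25h, in each mouse, in log2 units relative to the filtered-air mean (blue, filtered air; red, ozone; circles, flow-sort batch 1; triangles, batch 2; digits, mouse number). Ozone mouse 2 has the lowest Abca1 and Pltp, and ozone mice 4 and 5 have the highest values of their group in Abca1, Pltp and Apoe.

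Genes with a pattern most like that of the transporters were ranked by Pearson's r of the same residuals over 12 mice. The ranking ran over 17167 other genes in which no mouse was at a lowest value shared within its batch. Being the highest of so many, these values are a description only. For Abca1 they were Gm5921 (0.913), Nadk (0.890), Vcan (0.883), Pcyox1 (0.882) and A230028O05Rik (0.873). For Abcg1 they were Dip2b (0.954), Tbcel (0.934), Cdk6 (0.914), Iqgap2 (0.912) and Naip2 (0.907). Of these 10 genes only Iqgap2 was called after ozone, with a fall of 0.23 (limma's adjusted p = 0.0462). Nadk, the NAD kinase gene, differed by 0.036, and Vcan, which encodes the matrix proteoglycan versican, by -0.11. None of the 10 genes of the LXR and oxysterol set was among them.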

How the data were processed

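RNA of flow-sorted alveolar macrophages was measured in 6 ozone and 6 filtered-air mice, grouped by their titles. The deposited values, 1 column per mouse, are on a log2 scale. Variance stabilization and correction for batch were done by the authors, per the deposited file's name. The submitters' processing notes name cutadapt, STAR 2.7.7a, Salmon 1.5.2, DESeq2 1.26.0, R 3.6.0, limma 3.42.2 and mm10; the annotation is not given in the sources used here. The filtered-air mean and the batch difference were 0 in every gene (within 2.4e-08 and 5.3e-08).

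Genes were tested with limma 3.58.1 (R 4.3.3), adjusting for flow-sort batch and using no variance trend, since the centred means hold no abundance. Of 25444 genes that were not constant, 19633 had at least 6 mice above the lowest value shared by mice of a batch, and p-values were adjusted over these (Benjamini-Hochberg, threshold 0.05). The fit was tested on simulated data. A read was taken as the first step above the shared minimum (0.0973 to 0.115 by library); Cyp7b1 values then lay within 0.0011 of whole reads. No genome was used beyond the RefSeq windows of GRCm38.p6, which share their build with mm10.

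The members and lists were chosen with earlier results of these data known. The rule named all 10 genes, called genes of the lists, the gene with the smallest p in a list without calls, and the 5 genes most like Abca1 and Abcg1. Other listed genes, and Ctsa and Acp2, were named after their values were seen, and the motif tolerance was likewise set then. Filters, variance priors, scaling, covariates, single batches and single mice were varied. Intervals are for the mean difference between the groups, with an error taken from the variation between mice. The series' design text calls the samples biological replicates, and each has its own mouse number. The values of 1 listed gene are not reported here.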

Additional observations from a re-analysis of the deposited data

Results flagged for a closer look

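Soat1 in filtered-air mouse 3 was at -0.13, with the next mouse of its group at 0.0038, a gap of 0.683 of the group's range (Dixon's critical value for 6 mice, 0.625). It was 1 of 40 combinations of group and gene examined, and chance flags about 1 in 20. Without this mouse the difference of Soat1 was 0.092 and was not called.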

How the results depend on the processing

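Pltp was the one called gene of the 10 in most settings. The count was 0 after quantile normalization and in batch 1 or batch 2 alone, 2 without the flow-sort batch term (Nr1h3 joined), and 0 to 2 without single mice. The listed genes outside the 10 gave 3 calls, but 0 after quantile normalization and in either batch alone, 5 without the batch term, 8 with the replicate block, and 2 to 6 without single mice. Over all genes the count of 834 moved to 171 after quantile normalization, 90 in batch 1 alone and 0 in batch 2 alone (fewer mice), and 538 to 751 without single mice, lowest without filtered-air mouse 1. The interaction test called 0 of the 10 genes in every setting run. Of 219 differences of the 10 genes under other settings, 208 kept sign and call, and 3 changed sign without a call: Ch25h in batch 2 (-0.090) and Abcg1 without filtered-air mouse 5 (0.0098) or ozone mouse 2 (0.017), in a range from -0.044 to 0.017 without single mice. The cause was not tested. Same-numbered mice are different animals, and for that reason the mice were not treated as paired in the main fit. The deviations of same-numbered mice correlated at -0.0026 to 0.28, 4 of 6 above 0.1. Of the ozone mice, 3 of 6 correlated best with their own number. Whether same-numbered mice shared a condition was not tested. The replicate block kept the Pltp call (limma's adjusted p = 0.00376) and gave 853 genes in all. Genes with few reads, such as Cyp7b1, are limited by depth.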
